A study of Rattus norvegicus with 24 samples.

Results

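Proteases of 4 families that cut the extracellular matrix, cell-surface proteins and lysosomal cargo were examined in rat cortex: the matrix metalloproteinases (MMPs), the ADAMs (a disintegrin and metalloproteinase), the ADAMTS enzymes (ADAMs with thrombospondin motifs) and the cathepsins. Members were all probes whose platform gene symbol was Mmp, Adam or Adamts followed by digits alone, or Cts followed by 1 letter. This gave 55 of the 22523 probes on the array, for 54 genes: 20 MMP, 11 ADAM, 11 ADAMTS and 12 cathepsin genes, with a second probe only for Adam10. The RefSeq table for the rat lists 83 protein-coding genes with such symbols, and the other 29 were not analysed here. Another 9 names that begin alike, such as Adamtsl4 and Cts7, fell outside the rule.

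The RNA came from male Wistar rats under ketamine and xylazine anaesthesia, on 24 Illumina RatRef-12 arrays in 6 groups of 4. Treatment animals had a permanent cauterization of the middle cerebral artery through a subtemporal opening of the skull and received 30 mM of the Aurora kinase inhibitor ZM447439 in 80% dimethyl sulfoxide (DMSO) into a cerebral ventricle. Vehicle animals had the same occlusion and 80% DMSO, and sham animals had the operation without the occlusion, with no injection described for them. Each kind of animal was sampled at 24 h and at 8 h. The tissue is labelled as right cortex although the artery is described as the left one, which the sources used here do not settle, and they do not say whether each array was a separate animal. At least 1.5 times the array median at both times were 10 of 11 neuron, 8 of 8 astrocyte and 8 of 9 oligodendrocyte markers. So were 7 of 7 markers of striatum and 9 of 12 of microglia and macrophages. Of endothelial markers 2 of 6 were, of choroid plexus markers 1 of 8, of neutrophil markers 1 of 10, and of T and NK cell markers 0 of 9. The share of all genes with a symbol was 44.2%.

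MMPs are secreted or membrane-bound zinc enzymes that digest collagens, laminins and other matrix proteins. In ischemic brain they are known above all for opening the blood-brain barrier through loss of basement membrane and tight junctions. ADAMs release growth factors, cytokines and receptors from the cell surface, although several members lack an active site and act in adhesion. ADAMTS enzymes cut proteoglycans such as the lecticans of perineuronal nets. Most cathepsins are cysteine proteases of the lysosome, while cathepsins D and E are aspartic and cathepsin G is a serine protease. In brain the lysosomal cathepsins are made by neurons and glia, and cathepsin S mainly by microglia and macrophages.

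A level below is a probe's intensity divided by the median intensity of its array. Levels of different probes are not compared as amounts of RNA, since probes differ in how brightly they bind. Sums of levels over several genes, given below, are therefore weighted toward the brightest probes. The 12 columns of a time point were the same probe profile multiplied by 1 factor per array, with departures of at most 2.87e-07 (log2) at 24 h and 2.97e-07 at 8 h. No protease gene could therefore be compared between treatment, vehicle and sham animals from these columns. What remained was 1 profile for 24 h and 1 for 8 h, and the log2 difference of the 24 h profile minus the 8 h profile has no replicate error and no p-value. Time after the operation, occlusion and drug are not separated in it. For a sense of scale, the 73 genes that had 2 or more probes at 1.5 times the median or above in both profiles were used. Their 2 brightest probes gave differences that lay 0.11 apart (log2) at the median and 0.31 at the 90th percentile. This gap lies between probes within the same 2 profiles, so it holds no variation between animals and is not the error of a difference. Below, a signed value in parentheses after 2 levels is the log2 difference.

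Of the 54 genes, 14 stood at 1.5 times the array median or above in both profiles: 6 of 12 cathepsins, 5 of 20 MMPs, 2 of 11 ADAMs and 1 of 11 ADAMTS genes. Over all probes the share was 34.7%, and among the members it was 25.9%. Over all named genes, each taken by its brightest probe as the members were, it was 44.2%. Another 39 genes were under 1.5 times the median at both times, as were 14194 of the 22523 probes. Of the 54 genes 29, or 53.7%, were under the median itself at both times, beside 48.2% of all probes and 37.5% of all named genes. The 25th percentile over all probes was 0.816 times the median in the 24 h profile and 0.812 at 8 h. How far the levels of these dim genes are above the empty-probe background is unknown, because no detection values were matched to these columns. Ctsc, the last gene, was above 1.5 at 24 h and just under it at 8 h.

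**Figure D1:**
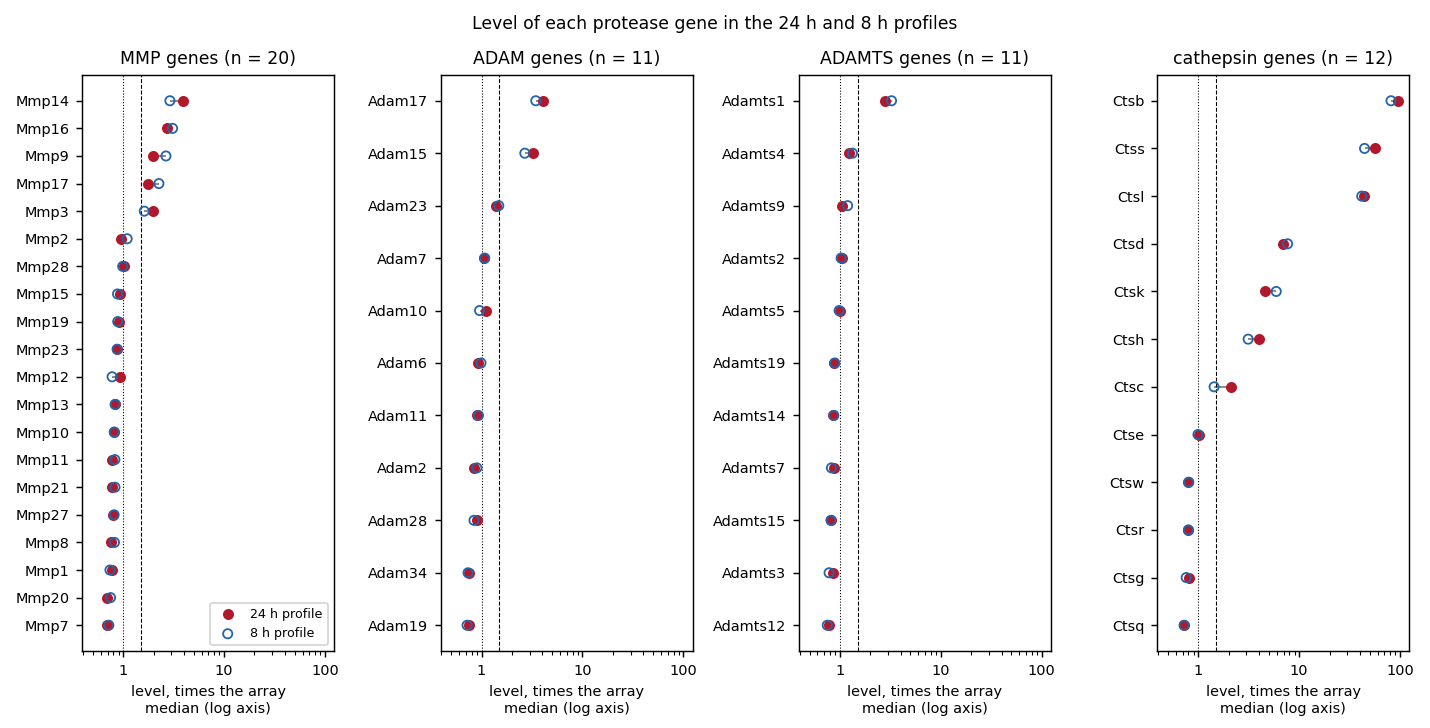
Level of the 54 protease genes, in multiples of the array median on a log axis, in the 24 h profile (filled) and the 8 h profile (open), 1 panel per family. The dotted line is the median and the dashed line 1.5 times the median. Most MMP, ADAM and ADAMTS genes lie left of the dashed line at both times, and 14 genes, among them Ctsb at 95.0 and 81.2, lie right of it at both.

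No member differed by 1.5-fold or more between the profiles, in either direction. Among all 22523 probes, 0.617% passed that size on the higher side in the 24 h profile and 0.497% on the lower side, and among the 7822 probes at 1.5 times the median or above in both profiles the shares were 1.39% and 1.29%. At those rates a set of this size would hold few such genes, so the absence is not a result about proteases. The closest were Ctsc on the higher side and Mmp9 on the lower. At 1.2-fold, a size chosen after the values had been seen, 6 genes were higher at 24 h (Ctsc, Mmp14, Ctsh, Ctss, Mmp3 and Adam15) and 3 were lower (Mmp9, Ctsk and Mmp17). That is 11.1% and 5.56% of the 54 genes, beside 3.62% and 6.13% of all probes and 4.89% and 7.96% of all named genes. Of these 9 genes, 8 belong to the 14 brighter ones, in which 35.7% were higher by this size and 21.4% lower. Among the 7822 probes of that brightness, 7.11% were higher and 15.5% lower. The median absolute difference of the 14 was 0.27, against 0.15 for the 7822 probes. Their median signed difference was 0.15, with 8 genes higher and 6 lower, whereas probes of that brightness had a median of -0.08. Over all 54 genes the median was 0.00, with 27 higher and 27 lower, a split that rests on the scaling, since division by the 75th percentile gave 38 higher and 16 lower. These shares and medians describe 2 profiles and are not a test.

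**Figure D2:**
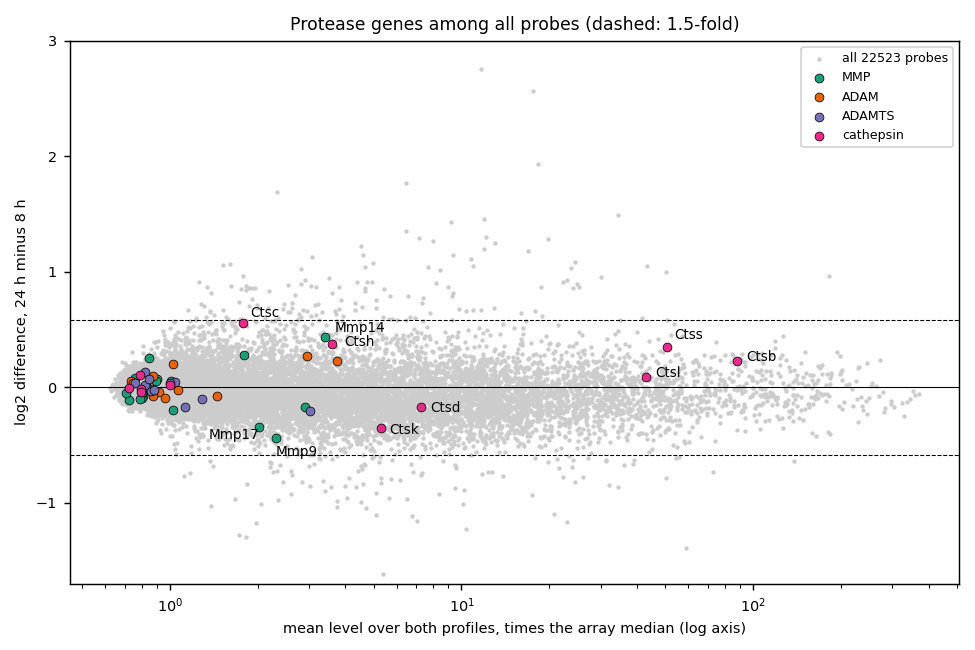
Log2 difference (24 h minus 8 h) against the mean level over both profiles, in multiples of the array median on a log axis, for all 22523 probes (grey) and the 54 protease genes (coloured by family). The dashed lines mark 1.5-fold. All members lie between the dashed lines, from -0.44 for Mmp9 to 0.56 for Ctsc.

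The cathepsins held 3 of the 6 genes that were higher by 1.2-fold in the 24 h profile. Ctss, the cathepsin of antigen-presenting cells that trims the invariant chain of class II molecules and stays active at neutral pH, stood at 56.7 times the array median in the 24 h profile, against 44.4 times in the 8 h one. Its deposited intensity ran from 4358 through a median of 4989 to 6520 over the 12 arrays at 24 h, and from 2903 through 3539 to 4003 over the 12 arrays at 8 h. All 24 h arrays were above all 8 h arrays, but within a time the spread is only the array factor and carries no information on Ctss itself. Array medians were 76.8 to 115 (middle 88.0) at 24 h and 65.3 to 90.1 (middle 79.7) at 8 h. Whether the times overlap thus follows from a gene's difference and these factors alone, here and for every gene below. With factors that were mostly larger at 24 h, higher genes separate more easily than lower ones. After the array factor was removed the difference of Ctss was 0.35 log2, or 1.28-fold. Of all 7822 probes at 1.5 times the median or above in both profiles, 4.31% were as far up.

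Ctsc encodes dipeptidyl peptidase I, which activates the granule serine proteases of neutrophils, mast cells and cytotoxic lymphocytes. It stood at 2.11 times the median in the 24 h profile, against 1.44 times in the 8 h one, a log2 difference of 0.56 (1.47-fold). Its intensity was between 162 and 243 (median 186) at 24 h, against 93.8 to 129 (median 114) at 8 h. Ctsh, an aminopeptidase of the lysosome, stood at 4.04 times the median in the 24 h profile and 3.12 times in the 8 h one, a difference of 0.37, with intensities of 311 to 465 against 204 to 281. For all 3 genes the difference was larger than the gap between probes of 1 gene at its 90th percentile.

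Ctsk, the collagen- and elastin-degrading cathepsin known from osteoclasts, went the other way. It stood at 4.63 times the median in the 24 h profile, against 5.92 times in the 8 h one, a difference of -0.36. Its deposited intensities were 356 to 532 at 24 h and 387 to 534 at 8 h. Ctsk and Ctss lie near each other on chromosome 2 in the RefSeq annotation, on the same strand, and differed in opposite directions. Ctsd, the main aspartic protease of lysosomes, stood at 6.84 times the median in the 24 h profile and 7.68 times in the 8 h one (-0.17). Ctsb, a broad lysosomal cysteine protease also released by injured cells, stood at 95.0 and 81.2 times the median in the 24 h and 8 h profiles (0.23). Ctsl, a lysosomal endopeptidase, was nearly level, at 44.2 and 41.7 times (0.08). The last 3 differences were smaller than the 0.31 seen between probes of 1 gene at the 90th percentile.

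The other 5 cathepsins were near or under the median at both times and differed by -0.04 to 0.10. They were Ctse, the aspartic cathepsin of immune cells and gastric epithelium, Ctsg of neutrophil and mast cell granules, Ctsw of cytotoxic lymphocytes, and Ctsq and Ctsr, which belong to the placental cathepsins of rodents. The median difference of the 12 cathepsin genes was 0.05, with 7 higher and 5 lower, beside -0.01 for all probes, and it lay between 0.04 and 0.15 under the other scalings and filters. Summed over the family, the level was 218 times the median in the 24 h profile and 190 times in the 8 h one, and that sum is dominated by the brightest probes.

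**Figure D3:**
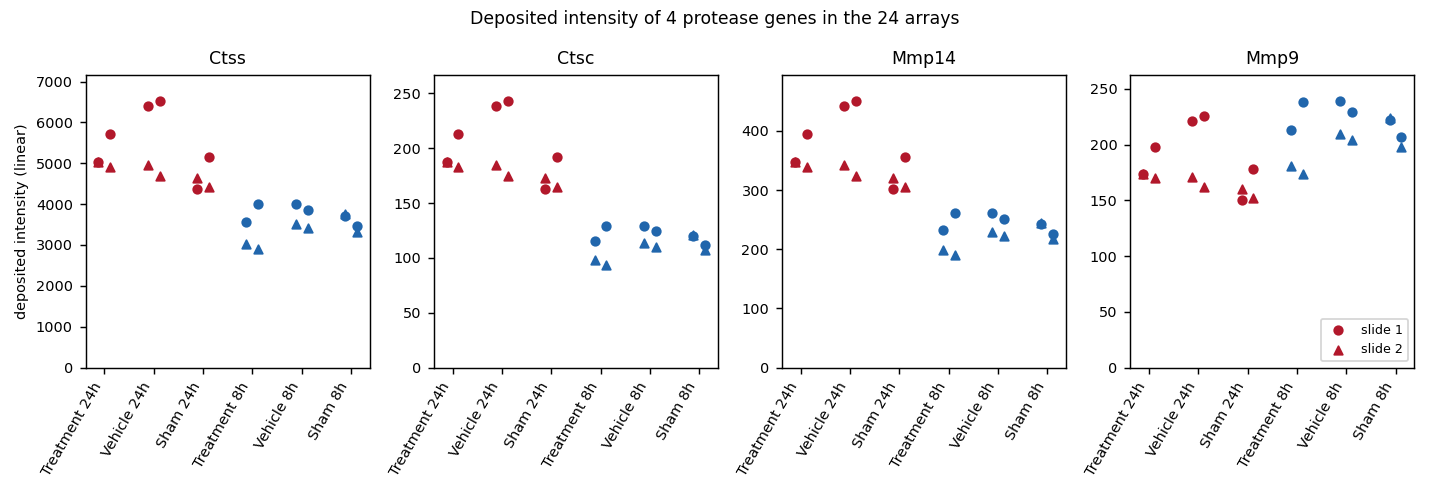
Deposited intensity (linear, axis from 0) of Ctss, Ctsc, Mmp14 and Mmp9 in each of the 24 arrays, by group, with 24 h groups in red and 8 h groups in blue, circles for slide 1 and triangles for slide 2. Within a time the 4 panels repeat 1 pattern, the array factor. The 24 h arrays lie above the 8 h arrays for Ctss, Ctsc and Mmp14, and the 2 times overlap for Mmp9. Both follow from the 2 profiles and the array factors alone.

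Promoters are shown for the cathepsins that differed most, with Ctsd as the cathepsin that carries the lysosomal element, and for Mmp3 as an MMP with an AP-1 site. Each promoter runs from 250 bases before to 50 bases after the annotated start (RefSeq, build GRCr8), and 36 of the 54 genes had an entry. Capitals mark every match, on either strand and with overlaps counted, to the AP-1 site TGANTCA, the GC box GGGCGG, the core TCACGTG of the CLEAR element bound by TFEB, the core GAGGAA of PU.1 sites, and the TATA box TATAAA.
Ctss (chr2:185775146-185775445, plus strand): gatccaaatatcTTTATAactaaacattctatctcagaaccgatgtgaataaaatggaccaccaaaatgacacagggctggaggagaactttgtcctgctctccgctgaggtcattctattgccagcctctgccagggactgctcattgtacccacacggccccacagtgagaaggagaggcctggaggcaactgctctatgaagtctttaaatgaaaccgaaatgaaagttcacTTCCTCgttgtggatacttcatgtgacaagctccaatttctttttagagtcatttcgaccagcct
Ctsc (chr1:151440799-151441098, plus strand): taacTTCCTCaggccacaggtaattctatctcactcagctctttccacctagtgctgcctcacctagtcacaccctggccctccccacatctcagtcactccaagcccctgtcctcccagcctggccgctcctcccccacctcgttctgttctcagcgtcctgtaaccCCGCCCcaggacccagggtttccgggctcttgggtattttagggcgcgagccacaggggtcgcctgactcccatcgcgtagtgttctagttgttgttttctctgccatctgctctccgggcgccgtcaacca
Ctsh (chr8:99488506-99488805, plus strand): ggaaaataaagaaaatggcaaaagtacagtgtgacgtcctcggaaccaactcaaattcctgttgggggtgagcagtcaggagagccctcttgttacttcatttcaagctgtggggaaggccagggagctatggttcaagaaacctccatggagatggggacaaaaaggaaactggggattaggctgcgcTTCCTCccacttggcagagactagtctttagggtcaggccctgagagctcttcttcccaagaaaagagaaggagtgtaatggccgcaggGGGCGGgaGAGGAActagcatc
Ctsk (chr2:185747298-185747597, plus strand): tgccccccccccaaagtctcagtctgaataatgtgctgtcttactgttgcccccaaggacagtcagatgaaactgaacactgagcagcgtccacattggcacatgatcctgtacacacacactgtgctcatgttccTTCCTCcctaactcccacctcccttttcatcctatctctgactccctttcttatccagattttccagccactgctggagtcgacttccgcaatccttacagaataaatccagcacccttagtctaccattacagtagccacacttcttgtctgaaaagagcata
Ctsd (chr1:206968772-206969071, minus strand): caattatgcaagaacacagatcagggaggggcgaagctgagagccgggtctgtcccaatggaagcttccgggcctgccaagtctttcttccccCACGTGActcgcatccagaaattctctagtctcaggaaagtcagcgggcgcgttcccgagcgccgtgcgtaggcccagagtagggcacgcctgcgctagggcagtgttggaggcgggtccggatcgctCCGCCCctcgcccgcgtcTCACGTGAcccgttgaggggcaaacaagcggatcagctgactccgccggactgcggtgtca
Mmp3 (chr8:12925031-12925330, plus strand): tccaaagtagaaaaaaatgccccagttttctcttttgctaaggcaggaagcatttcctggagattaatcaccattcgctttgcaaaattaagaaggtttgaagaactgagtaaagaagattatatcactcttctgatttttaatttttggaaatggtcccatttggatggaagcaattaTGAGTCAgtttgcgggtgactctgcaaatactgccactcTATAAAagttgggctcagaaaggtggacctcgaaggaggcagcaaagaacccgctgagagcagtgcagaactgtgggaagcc
The PU.1 core is named for a transcription factor of macrophages and microglia. It was in 13 of the 36 member promoters (36.1%), against 27.6% of all 33469 promoters of this length. By family it was in 7 of 9 cathepsin, 3 of 14 MMP, 2 of 5 ADAM and 1 of 8 ADAMTS promoters. Among the cathepsins it was in the promoters of Ctss, Ctsc and Ctsh, which were higher at 24 h, and of Ctsk, which was lower. The dim genes Ctse, Ctsg and Ctsr carried it too, with differences of 0.02, 0.10 and -0.01. The promoters of Ctsl (0.08) and Ctsd (-0.17) lacked it, and Ctsb, Ctsq and Ctsw had no entry. Any part of PU.1 in the differences was not tested. The CLEAR core was in 3 of the 36 member promoters, those of Ctsd, Adam10 and Mmp12, against 3.20% of all promoters, and the Ctsd window held 3 matches, 2 of which overlap as the 2 strands of 1 palindrome. The AP-1 site was in 7 of 14 MMP promoters and in 1 of the other 22 member promoters, against 7.33% of all. Those MMP genes (Mmp1, Mmp3, Mmp7, Mmp10, Mmp12, Mmp13 and Mmp20) all lie in 1 cluster on chromosome 8. Of the brighter MMPs, Mmp9, Mmp14, Mmp16 and Mmp17 had no promoter entry. The TATA box was in 9 of 14 MMP promoters and in 14 of all 36 member promoters, against 14.2% of all. A match is a description of the letters and not evidence of binding.

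Among the MMPs, differences at the brighter probes went both ways. Mmp14, the membrane-type collagenase that activates pro-MMP2 at the cell surface, stood at 3.92 times the array median in the 24 h profile, against 2.90 times in the 8 h one. Its deposited intensity was 301 to 450 (median 344) at 24 h and 190 to 262 (median 231) at 8 h, and the difference was 0.43 (1.35-fold). Of all probes at 1.5 times the median or above in both profiles, 2.81% were as far up. Mmp3, the stromelysin that cuts proteoglycans and activates other MMPs, stood at 1.96 times the median in the 24 h profile and 1.62 times in the 8 h one (0.28).

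Mmp9, the gelatinase carried by neutrophils and induced in cells of the blood vessel wall after stroke, was the lowest of all members in the comparison. It stood at 1.96 times the median in the 24 h profile, against 2.65 times in the 8 h one, a difference of -0.44, so the 8 h level was 1.35-fold the 24 h level. Its intensity was 151 to 225 (median 172) at 24 h and 173 to 239 (median 211) at 8 h. Array medians were 76.8 to 115 at 24 h and 65.3 to 90.1 at 8 h. Of all probes at 1.5 times the median or above in both profiles, 3.81% were as far down. Mmp17, a membrane-anchored MMP, stood at 1.78 times in the 24 h profile and 2.26 times in the 8 h one (-0.34). Mmp16, a membrane-type enzyme expressed in brain, stood at 2.74 and 3.08 times (-0.17), a smaller difference than the gap between probes of 1 gene at its 90th percentile.

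The other 15 MMP genes were below 1.5 times the median in both profiles, 13 of them below the median, and differed by -0.19 to 0.25. Mmp2, the constitutive gelatinase of astrocytes and vessels, was the lower end, at 0.957 times the median in the 24 h profile and 1.10 times in the 8 h one, and Mmp12, the macrophage elastase, the upper end, at 0.923 and 0.777 times. A run of 9 MMP genes forms 1 cluster on chromosome 8 in the RefSeq annotation (Mmp13, Mmp12, Mmp3, Mmp1, Mmp10, Mmp8, Mmp27, Mmp20 and Mmp7), and of these only Mmp3 reached 1.5 times the median in a profile. Mmp8, the neutrophil collagenase, was at 0.762 and 0.820 times the median in the 24 h and 8 h profiles. The family's median difference was -0.04, with 8 genes higher and 12 lower, and it changed sign to a higher median with scaling to the 75th percentile and without the dimmest 75% of probes.

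The ADAM family had a median difference of 0.03, with 6 genes higher and 5 lower. The 2 genes above 1.5 times the median were both higher at 24 h, each by less than the gap between probes of 1 gene at its 90th percentile. Adam17, the sheddase that releases TNF and ligands of the EGF receptor, stood at 4.04 times the array median in the 24 h profile and 3.45 times in the 8 h one (0.23), with intensities of 310 to 464 against 225 to 311. Adam15, an ADAM of endothelial and other cells, stood at 3.23 times in the 24 h profile and 2.68 times in the 8 h one (0.27). Adam10, the main alpha-secretase of the amyloid precursor protein, had 2 probes, with levels of 1.10 and 0.956 times the median in the 24 h and 8 h profiles at one (0.20) and 1.02 and 1.00 times at the other (0.02). Both probes were close to the array median, and they did not show the same difference. Adam23, which lacks an active site and binds LGI1 at synapses, stood at 1.41 and 1.48 times. Adam11, a related inactive ADAM of neurons, was at 0.907 times the median in the 24 h profile and 0.932 times in the 8 h one. The lower end of the family was Adam6, at 0.928 and 0.987 times (-0.09). The remaining members, Adam2 and Adam7, known from the male reproductive tract, and Adam19, Adam28 and Adam34, were dim, with levels from 0.719 to 1.08 times the median in either profile.

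Of the ADAMTS genes, only Adamts1 reached 1.5 times the median. This aggrecan- and versican-cutting enzyme stood at 2.82 times the array median in the 24 h profile, against 3.25 times in the 8 h one (-0.21). Its intensities were 217 to 324 at 24 h and 212 to 293 at 8 h. The other 10 differed by -0.17 to 0.13. Adamts4, an aggrecanase, stood at 1.24 and 1.33 times the median in the 24 h and 8 h profiles, and Adamts5, the second main aggrecanase, at 1.01 and 0.983 times. Adamts9, a versicanase, stood at 1.06 and 1.19 times and marked the lower end of these 10, with Adamts3, a procollagen N-proteinase, at the upper end with 0.858 and 0.782 times. Adamts2, Adamts7, Adamts12, Adamts14, Adamts15 and Adamts19 lay between 0.750 and 1.06 times in either profile. The family's median difference was 0.02, with 6 higher and 5 lower, and it turned negative without the dimmest 50% or 75% of probes.

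Some inhibitors of these enzymes differed by more than any of the enzymes did. The metalloprotease inhibitors counted 7 measured genes of 9 listed, with a median of 0.01. Past 1.5-fold were 2 on the higher side and 0 on the lower, beside 0.617% and 0.497% of all probes. Among probes at 1.5 times the median or above in both profiles the shares were 1.39% and 1.29%. At 1.2-fold 2 were higher and 2 lower, and the summed level was 117 at 24 h and 118 at 8 h. A2m, the broad-spectrum protease trap alpha-2-macroglobulin, stood at 6.32 times the array median in the 24 h profile and 2.71 times in the 8 h one (1.22). Timp1, the inducible tissue inhibitor of MMPs, stood at 29.1 times in the 24 h profile and 15.5 times in the 8 h one (0.91). Timp2, which takes part in pro-MMP2 activation by MMP14, stood at 5.41 and 5.99 times (-0.15), and Timp3, the inhibitor of ADAM17 and aggrecanases, at 1.13 and 1.12 times. The brain proteoglycan Spock1 differed by -0.40, and Spock2, at 57.4 times in the 24 h profile and 70.9 times in the 8 h one, by -0.30.

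Of 15 measured cystatins and serpins, 5 were higher and 10 lower (median -0.03). Again 2 were past 1.5-fold on the higher side and 0 on the lower, beside the shares of all probes given above. Over all probes 46.9% were higher in the 24 h profile, and 35.2% of those at 1.5 times the median or above in both profiles. These shares stand beside every count of higher genes given below. Serping1, the C1 inhibitor, differed by 1.04, Serpinb1a, which inhibits neutrophil elastase and cathepsin G, by 0.55, and Serpini1, the neuronal serpin, by -0.30. Serpina3n, an acute-phase serpin of reactive astrocytes, stood at 2.26 times in the 24 h profile and 1.25 times in the 8 h one. Cst3, the secreted cysteine cathepsin inhibitor cystatin C, stood at 266 times in the 24 h profile and 301 times in the 8 h one (-0.18), and Cstb, the intracellular one, at 56.5 and 56.1 times. Among 5 measured plasminogen activator genes, Plat, the tissue plasminogen activator, stood at 7.28 times in the 24 h profile against 10.8 times in the 8 h one (-0.57), and its cofactor annexin gene Anxa2 at 4.57 against 3.45 times (0.41). No gene of that list passed 1.5-fold.

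The wider list of lysosome genes had no common direction. Of 28 measured, 12 were higher and 16 lower, with 0 past 1.5-fold in either direction and a median of -0.01. The largest differences were those of Scarb2, the transporter of glucocerebrosidase to lysosomes (0.45), Grn, progranulin (0.43), and Npc1, the lysosomal cholesterol exporter (-0.42). Lgmn, the asparaginyl endopeptidase that processes cathepsins, differed by 0.22, Lamp1, a membrane protein of lysosomes, by -0.17, and Tfeb itself stood under the median at both times. ADAM partners, among them scaffolds and LGI ligands, were higher in 8 of 13 (median 0.02, 0 past 1.5-fold). At the brighter probes the largest differences were Lgi3 at -0.46, Tspan5 at -0.29 and Lgi1 at -0.23. Other genes of these names were higher, with Lgi4 at 0.18, Lgi2 at 0.02, Tspan14 at 0.14 and Tspan33 at 0.05. Rhbdf1, an inactive rhomboid that escorts Adam17 and was named after its value was seen, was the list's highest at 0.30, with 1.66 times the median in the 24 h profile and 1.34 times in the 8 h one. Substrates of ADAMs and EGF-family ligands were higher in 8 of 19 (median -0.05, 0 past 1.5-fold), with Notch1 at -0.31, Tnfrsf1a at -0.30 and App at -0.26. Of 15 lecticans and matrix substrates 7 were higher (median -0.01). Spp1, osteopontin, was the 1 gene past 1.5-fold there (2.75), and Col4a1, a basement membrane collagen chain, differed by -0.41 and Bcan, brevican, by -0.24.

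**Figure D4:**
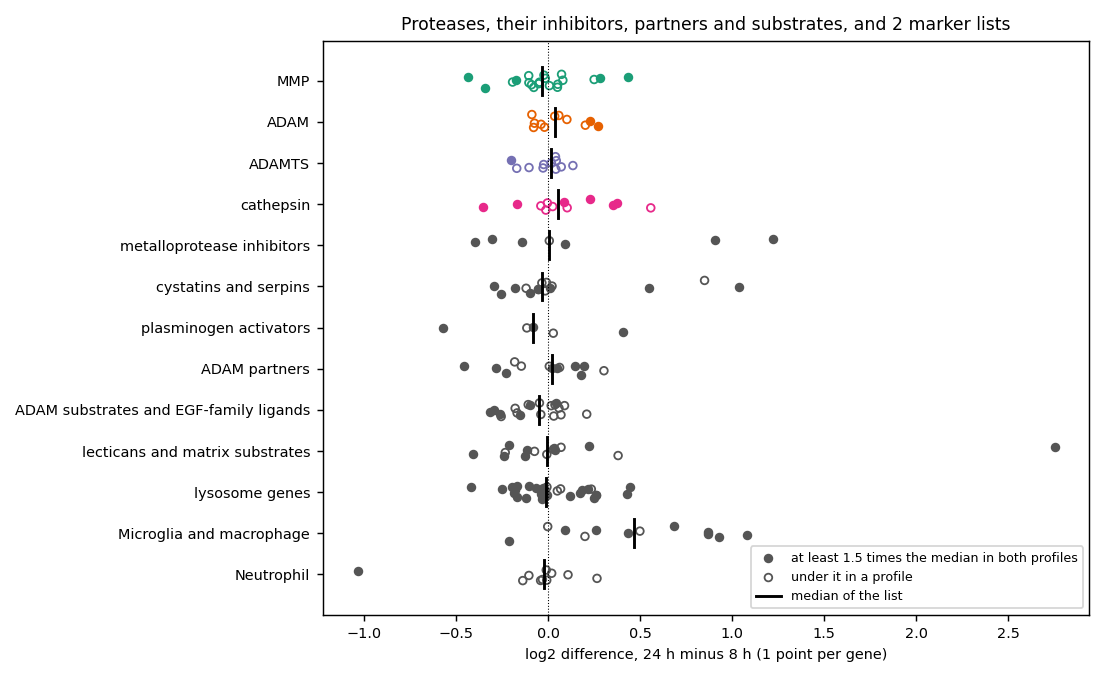
Log2 difference (24 h minus 8 h), 1 point per gene, for the 4 protease families, the 7 related lists and 2 marker lists. Filled points are genes at 1.5 times the array median or above in both profiles, and bars are medians. The protease families stay within 0.56 of no difference, while A2m and Timp1 among the inhibitors and Spp1 among the matrix proteins lie further out.

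Markers of microglia and macrophages, cells that carry some of these enzymes, differed between the profiles as well. In the 24 h profile 10 of 12 measured microglia and macrophage markers were higher, 5 by 1.5-fold or more, beside 46.9% and 0.617% of all probes. Among probes at 1.5 times the median or above in both profiles these shares were 35.2% and 1.39%. The summed level of the markers was 139 times the median in the 24 h profile and 82.5 times in the 8 h one. None was at 0, and the lowest levels were 1.03 times the median in the 24 h profile and 0.912 at 8 h. Their part in the differences of Ctss, Ctsc and Ctsh was not tested. In bulk tissue a change in the number of cells of a type and a change in RNA per cell cannot be told apart.

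Of 10 neutrophil markers, Mmp8 being one of them, 9 were under 1.5 times the median at both times, and the summed level was 10.1 at 24 h and 12.7 at 8 h. S100a8, the exception, stood at 2.46 times in the 24 h profile against 5.05 times in the 8 h one, a difference of the same sign as that of Mmp9, while S100a9 was at 0.764 and 0.768 times. Without S100a8 the other 9 summed to 7.68 at 24 h and 7.61 at 8 h. The part of neutrophils in the Mmp9 difference was not tested. Markers of T and NK cells, which express Ctsw, were all under 1.5 times the median in both profiles, with sums of 8.13 and 8.27 over 9 genes at 24 h and 8 h. Endothelial markers summed to 43.9 at 24 h and 40.7 at 8 h, with 6 of 6 higher. Their differences ran from 0.00 for Flt1 to 0.45 for Vwf, with Cdh5 at 0.02 and Cldn5 at 0.03. Of the 6, 4 were under 1.5 times the median at both times. Without Vwf the other 5 summed to 36.6 at 24 h and 35.4 at 8 h.

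Markers of tissue next to cortex also differed. Striatum markers summed to 120 times the median in the 24 h profile and 83.3 times in the 8 h one (6 of 7 higher), and choroid plexus markers to 38.9 and 11.6 times (7 of 8 higher). Most of the choroid plexus sum was Ttr, transthyretin, at 30.1 times at 24 h and 5.10 times at 8 h. The other 7 summed to 8.76 and 6.53 times, and 5 of the 8 were under 1.5 times the median at both times. Astrocyte markers summed to 624 times at 24 h and 526 times at 8 h (3 of 8 higher), and that order came from Gfap, the astrocyte filament protein, at 241 and 124 times. The other 7 astrocyte markers summed to 384 and 403 times, and the list's median difference was -0.04. Sums were lower at 24 h for neuron markers (494 against 549, 1 of 11 higher) and oligodendrocyte markers (254 against 354, 1 of 9 higher). Of all probes at 1.5 times the median or above in both profiles, 35.2% were higher, with a median difference of -0.08. The part of any of these cell types or tissues in the protease differences was not tested.

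For each of the 14 genes at 1.5 times the median in both profiles, and for Ctsc, the sign was the same under every other scaling, background setting, filter and probe rule that kept the gene, but the sizes moved. Ctsc crossed 1.5-fold at 0.61 after scaling to the 75th percentile and after cyclic loess, and at 0.93 with the 1st percentile subtracted, and stood at 0.43 with a pseudocount of 0.5 times the median. Mmp9 crossed it at -0.63 with the subtraction, which also took Mmp17 to -0.53, Mmp3 to 0.45 and Mmp14 to 0.54. Some small differences shifted by more than 1.5 times under another scaling. Cyclic loess took Ctsd to -0.07, Mmp16 to -0.09 and Adamts1 to -0.12, and quantile normalization took Ctsl to 0.15.

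**Figure D5:**
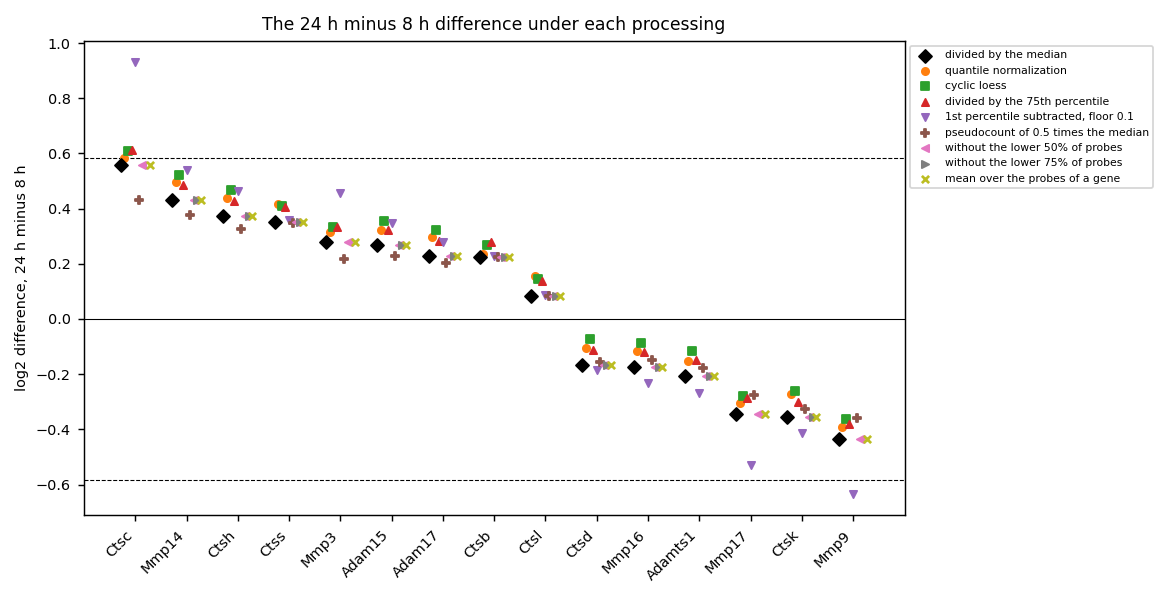
Log2 difference (24 h minus 8 h) of Ctsc and the 14 brighter protease genes under each processing, with the diamond for columns divided by their median. The dashed lines mark 1.5-fold. Every gene keeps its side of 0, and subtraction of the 1st percentile moves Ctsc to 0.93 and Mmp9 to -0.63.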

How the data were processed

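Intensities on a linear scale were deposited by the authors in 1 table of 22523 probes for 24 Illumina arrays on 2 slides. Their background correction and normalization are not given in the sources used here. A further 24 columns of non-normalized values bear only running numbers, match no sample by name and were not used. Groups came from the sample titles.

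Each column was divided by its median, and the 12 columns of a time point, being 1 profile, were averaged. The log2 difference is the 24 h profile minus the 8 h profile. The limma models this design would allow could not be fitted to identical profiles, so there is no test. Where a gene had several probes, the one with the highest mean was taken. Of the probes, 13793 had a symbol, 8730 had none and 0 had several. All 55 member probes matched the RefSeq gene table (GRCr8, used for names, order and promoter windows), and 0 symbols changed.

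Named by rule were members past 1.5-fold, members above 5 times the median, the extremes of each family, genes with several probes, and up to 3 genes per related list. Other genes were named after their values were seen. Members and lists were chosen with earlier results of these data known. The calculation was run on data simulated from the 8 h profile, with planted differences and 1 factor per array but no noise. Recovery was thus built in, and that run checks the arithmetic only. Alternatives were other scalings (limma 3.58.1 in R 4.3.3), background settings, filters and left-out arrays, the last of which could move no value. Python 3.11.15 with pandas 2.3.3 and numpy 2.4.6 was used. The 12 arrays of a time point hold 1 profile, so no replicate error or precision can be given.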

Additional observations from a re-analysis of the deposited data

Results flagged for a closer look

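The median intensities of the 4 treatment arrays at 24 h had 1 array, replicate 2, apart from the other 3. The gap from it to the nearest, divided by the range, was 0.866, above the 95% critical value for a group of 4, which chance passes in about 1 of 20 groups. This was the only one of the 6 groups to do so. The medians were 101 in that array and 86.7 to 88.6 in the other 3. The array factor multiplies every probe alike, so the deposited Ctss intensity was 5722 there and 4918 to 5026 in the other 3 arrays, and the protease levels and differences, which are free of it, are not touched.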

How the results depend on the processing

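The count of members at least 1.5-fold higher at 24 h was 0 with columns divided by their median, 1 after cyclic loess and 1 with the 75th percentile (Ctsc both times), and 4 with the 1st percentile subtracted (Ctsc, Adam10, Adamts3 and Mmp12). The count lower by 1.5-fold was 0, and 2 with that subtraction (Mmp9 and Mmp2). Subtraction lowers the denominator of dim probes. At 1.2-fold, a size chosen after seeing the data, the 6 higher and 3 lower genes became 13 and 11 with the subtraction, and the lower count was 1 (Ctsk) without the lower 75% of probes, which leaves out Mmp9 and Mmp17. Without the lower 50% and 75% of probes, which leaves 24 and 11 members, family medians were -0.17 and 0.13 for MMPs, 0.20 and 0.25 for ADAMs, -0.14 and -0.21 for ADAMTS genes, and 0.15 and 0.15 for cathepsins. Those changes come from fewer genes being counted. Scaling to the 75th percentile moved the median of all probes to 0.05 and the 27 higher and 27 lower members to 38 and 16. Leaving out single arrays says nothing about stability, because the columns of a time point are 1 profile and no value could move. No paired analysis was possible because the columns of a time point are 1 profile and no result comes from a test. Signal over background is unknown for the 39 dim genes, whose differences therefore say little.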
